A study of Mus musculus with 17 samples.

Results

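The regions described are 358 windows of 500 bp in which the 5-hydroxymethylcytosine (5hmC) signal was higher in Sirt6 knockout (KO) than in wild-type (WT) mouse embryonic stem cells, and which lay within 10000 bp of a Sirt6 binding site of WT cells. They were taken from a deposited table of 3780 windows listed by the authors at a p under 0.001, of which 2218 were higher in KO. A window was kept when its RPKM (reads scaled to window length and library size) in the KO IP library was above that in the WT IP library, when it lay on an autosome other than 6, 10 and 11, and when its edge was within 10000 bp of the edge of a WT Sirt6 peak. On these 16 autosomes 1358 windows were higher in KO, so that 358 lay near Sirt6 and 1000 lay farther away. The windows were thus chosen by their KO and WT IP values and by distance, which are given as a description. The input libraries, the fold of the Sirt6 peaks and the acetylation lists played no part in the choice.

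Sirt6 is a NAD-dependent deacetylase that removes acetyl groups from histone H3 at lysine 9 (H3K9ac) and at lysine 56 (H3K56ac), marks found at active promoters and enhancers. The base 5hmC is made from 5-methylcytosine by the Tet dioxygenases and is abundant at enhancers and in gene bodies of embryonic stem cells. Bisulfite turns 5hmC into cytosine-5-methylenesulfonate (CMS), and in CMS-IP an antiserum against CMS pulls down the DNA fragments that carried it. An input library is the same treated DNA without the pull-down.

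The CMS-IP experiment used untreated cells of the 129 strain, Sirt6 knockout and wild type, with 1 IP and 1 input library for each genotype. ChIP-seq lists came from the same strain. Sirt6 was profiled in untreated Sirt6 KO cells at a lower and a higher antibody amount, and in untreated WT cells. H3K9ac and H3K56ac were profiled in Sirt6 KO and in WT cells, each either untreated or treated for 2 days with retinoic acid (RA), which drives differentiation, and harvested a day later. The cells of the ChIP-seq libraries were kept on irradiated mouse embryonic fibroblasts, which were then removed by plating. The labels do not say how many lines or clones were used, and no expression values were at hand to check the cells against stem cell markers.

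Each of the 17 groups of the series was a single library. Differences between KO and WT therefore could not be set against replicates, and no test of them is given. Intervals are 95% intervals, cover counting error only, and treat reads, windows or peaks as independent, although neighbouring windows and peaks share fragments. The IP libraries held 11413874 reads in KO and 13451714 in WT, and the input libraries 23924232 in KO and 16623305 in WT. Both KO Sirt6 libraries gave 0 peaks, from 40006795 and 48956556 tags, against 14510 peaks from 2008232 tags in WT. This went with the label of the KO Sirt6 libraries, though a pull-down without enrichment was not told apart from it. It is no check of the KO CMS-IP and acetylation libraries. The 8 acetylation lists held 2063 to 3593 peaks. Positions are in mouse build mm9. Genes at these positions were not analysed here, and regions are named by chromosome and position.

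In the 358 windows the KO IP library held 10 reads at the lowest, 38.5 at the median and 163 at the highest, against 0, 15 and 116 reads in the WT IP library. The KO input library held 1, 28 and 135 reads, against 1, 22 and 106 in the WT input. On the RPKM scale the medians were 6.75 in KO IP against 2.23 in WT IP, and 2.34 in KO input against 2.65 in WT input. The IP medians differ in the direction that the choice of windows sets, and the input medians differ little and in the opposite direction. Summed over the windows and scaled to library size, the KO to WT ratio was 2.68 for IP, which the choice of windows fixes as above 1. In 13 windows the WT IP library held 0 reads and the KO IP library 10 to 14. With a floor of 3 WT reads per window these 13 were at least 3.93- to 5.50-fold higher in KO. The smallest ratio among the members was 1.56, in the window on chromosome 19 from 5306501 to 5307000.

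**Figure D1:**
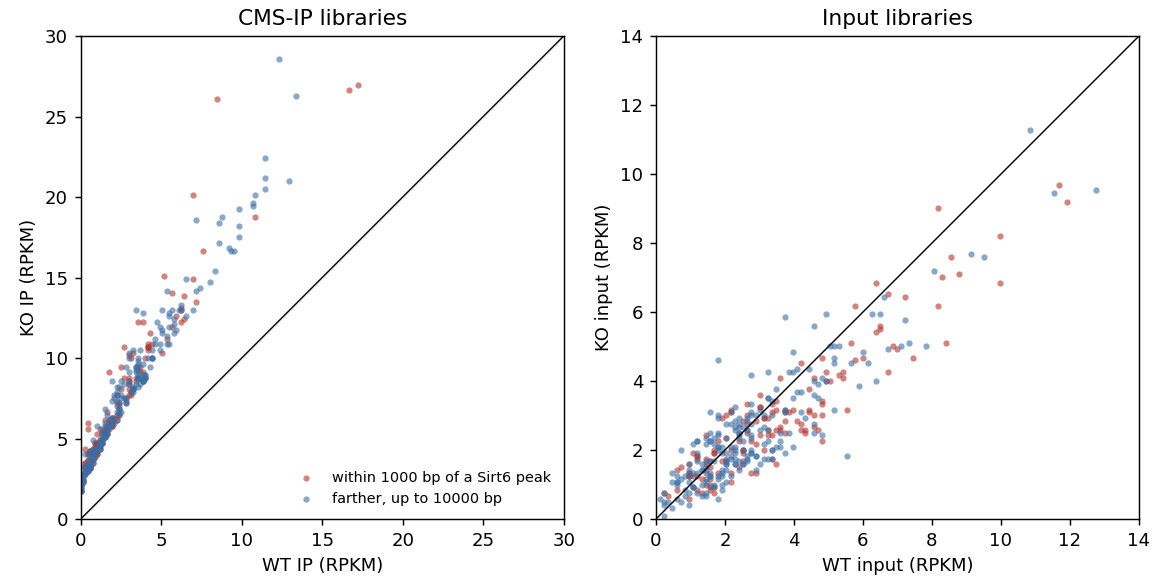
RPKM of each of the 358 windows in KO (vertical axis) against WT (horizontal axis), for the CMS-IP libraries on the left and the input libraries on the right; each point is 1 window, coloured by its distance to the nearest WT Sirt6 peak, and the line marks equal values. All points lie above the line for IP, by the choice of windows, and 233 of the 358 lie below it for input.

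The plot of KO against WT values shows the same windows in both kinds of library. Of the 358 windows, 9 passed an adjusted p under 0.1 from edgeR in the authors' deposited table. The number of windows that the authors tested, 3084167, was derived here from the ratio of adjusted p to p. Over these windows, 0.0719% were listed as higher in KO and 0.0024% were higher in KO and passed that adjusted limit. Since the same contrast chose the windows, nothing is read from this count. The authors' p-values come from 1 library of each genotype and carry no variation between cultures.

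The window with the smallest p lay on chromosome 13 from 3477501 to 3478000, across a Sirt6 peak. It held 149 reads in KO IP and 57 in WT IP, and 31 reads in KO input and 36 in WT input. In the authors' deposited table it had a log2 fold change of 1.63 and an edgeR adjusted p of 5.38e-08. The next, on chromosome 8 from 4214001 to 4214500, lay 2483 bp from its Sirt6 peak and had one of the deepest inputs, with 163 reads in KO IP, 83 in WT IP, 113 in KO input and 96 in WT input. The adjacent window from 4213501 was also among the 10 with the smallest p. A window across a Sirt6 peak on chromosome 8 from 106864001 to 106864500 held 115 reads in KO IP and 47 in WT IP, beside 110 in KO input and 99 in WT input. Scaled to library size, WT IP was close to or below WT input there, with 12.3 RPKM in WT IP and 11.6 in WT input in the window from 4214001, and 6.99 in WT IP and 11.9 in WT input in the window from 106864001.

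Another pattern was a WT IP near 0 at an ordinary input level. The window on chromosome 1 at 74708501 to 74709000 had 34 reads in KO IP and 3 in WT IP, beside 36 in KO input and 38 in WT input. The IP ratio there was 13.4, with an interval of 4.20 to 68.0 that reflects the 3 WT reads. On chromosome 3 from 89049501 to 89050000 the counts were 32 in KO IP, 3 in WT IP, 33 in KO input and 35 in WT input. In both windows the RPKM of WT IP, 0.446, was far below that of WT input, 4.57 on chromosome 1 and 4.21 on chromosome 3, while KO IP was above KO input. The other 4 of the 10 windows with the smallest p lay on chromosomes 16 (from 33834001), 5 (from 143177001 and from 124562001) and 4 (from 43573001), with IP ratios of 2.90 to 5.11. Of the 10 windows 4 overlapped a Sirt6 peak, and the one on chromosome 1 was the only one whose Sirt6 peak carried an acetylation call. Over all WT Sirt6 peaks 11.9% carried one, so nothing is read from so few.

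Within the 10000 bp that the choice allows, the windows lay close to the Sirt6 peaks. The median distance from edge to edge was 1898 bp, with quartiles of 327 and 4891 bp. A Sirt6 peak was overlapped by 45 windows (12.6%), and 140 lay within 1000 bp (39.1%). Because the ground covered grows with distance, the count was set against a grid of all 500 bp windows of the same chromosomes in the same distance band. The authors may not have tested all windows of this grid, and the part of that in the densities was not tested. Per 10000 windows of this grid there were 22.1 members at overlap and 29.1 at 1 to 1000 bp. Farther out there were 13.8 at 1001 to 2000 bp, 9.60 at 2001 to 5000 bp and 6.14 at 5001 to 10000 bp. The density was thus higher within 1000 bp of a peak than farther out. Direction and distance chose the members, so these densities are a description with no test. The intervals drawn for them in the plot by distance cover counting error only.

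The 164 windows of the same chromosomes that were lower in KO and near Sirt6 lay farther out by the median, though not by overlap. A Sirt6 peak was overlapped by 25 of them (15.2%), against 12.6% of the members. Their median distance was 4611 bp, and 38 lay within 1000 bp (23.2%). Per 10000 windows of the grid their density was highest at overlap, at 12.3. It was 3.98 at 1 to 1000 bp, 2.20 at 1001 to 2000 bp, 4.69 at 2001 to 5000 bp and 5.43 at 5001 to 10000 bp. The last was near the level of the members in the farthest band. The 196 higher windows near Sirt6 on chromosomes 6, 10 and 11 had a median distance of 3037 bp, and 53 lay within 1000 bp (27.0%).

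**Figure D2:**
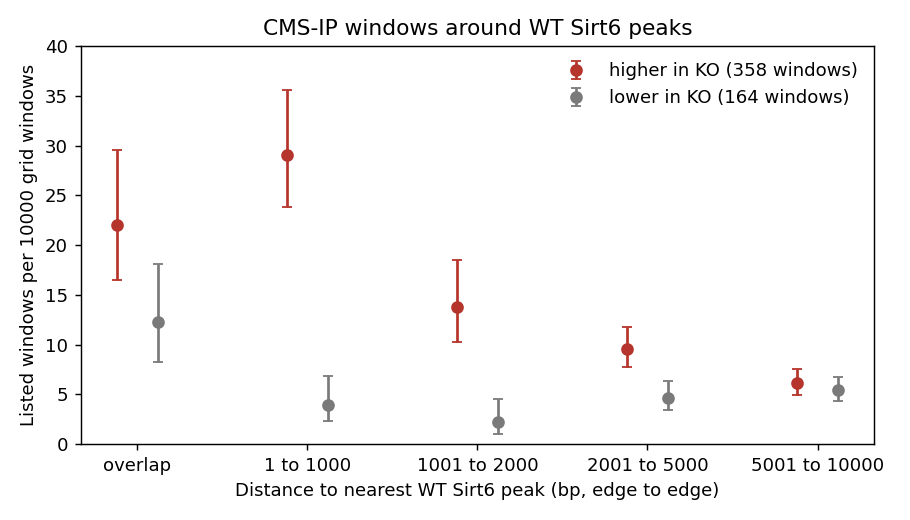
Number of listed CMS-IP windows per 10000 windows of the genome grid (vertical axis) by distance to the nearest WT Sirt6 peak (horizontal axis). Windows higher in KO and windows lower in KO on the same 16 autosomes are shown. Bars are Wilson 95% intervals for counting error and test nothing, since direction and distance chose the members. Higher windows reach 29.1 per 10000 at 1 to 1000 bp and 6.14 at 5001 to 10000 bp, where lower windows are at 5.43.

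Of all 1358 windows higher in KO on these chromosomes, 26.4% lay within 10000 bp of a Sirt6 peak, against 11.7% of the 1396 windows lower in KO, a difference of 14.6 percentage points. Direction and distance are the values that chose the members, so these shares are a description with no interval or test. Many of the lower windows lay on chromosomes 1 and 14. Without those chromosomes the shares were 26.5% of higher and 19.0% of lower windows, and the difference was 7.58 percentage points. With Sirt6 peaks at a −log10 q of at least 10 only, the shares were 12.7% and 6.88%, and the difference was 5.79 percentage points.

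Among chromosomes the share of higher windows near Sirt6, again a description, ran from 9.23% on chromosome 19 (6 of 65 windows) to 41.7% on chromosome 8 (25 of 60). Chromosome 7 held the most members, 60, followed by chromosome 5 with 42 and chromosome 4 with 35. These 3 chromosomes also had 940 to 1056 Sirt6 peaks each, among the more numerous. Chromosome 2 had more Sirt6 peaks, 1084, but held 27 members among 144 higher windows. Chromosome 1, with 770 Sirt6 peaks, held 6 members, since 23 windows in all were higher in KO there.

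The last window inside the limit lay 9978 bp from its Sirt6 peak, on chromosome 7 from 51857001, with 30 reads in KO IP and 9 in WT IP. The first outside lay at 10037 bp, on the same chromosome from 53955001, with 44 reads in KO IP and 19 in WT IP. The limit separates windows of like counts.

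Input reads, which did not enter the choice, were fewer in KO at these windows. The summed input ratio of KO to WT, scaled to library size, was 0.869 (0.846 to 0.893), and KO input RPKM was below WT input RPKM in 233 of the 358 windows (65.1%). The shortfall was smaller away from Sirt6: in the 1000 higher windows farther off the ratio was 0.955 (0.939 to 0.972). The ratio of the members' to the farther windows' input ratio was 0.910 (0.881 to 0.939). It was not seen on the chromosomes left aside: in the 196 near windows of chromosomes 6, 10 and 11 the input ratio was 1.04 (1.00 to 1.08), and the members' ratio over that one was 0.835 (0.797 to 0.874). Windows lower in KO and near Sirt6 had an input ratio of 0.577 (0.548 to 0.606).

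The input ratio varied between members more than the sum shows. Among the 335 windows with at least 20 input reads in all, the median ratio was 0.855, with quartiles of 0.695 and 1.10, and 222 were below 1 (66.3%). The highest ratio, 2.78, occurred on chromosome 4 from 57303001 to 57303500, with 24 reads in KO input and 6 in WT input, and on chromosome 13 from 101492001 to 101492500, with 16 and 4 reads. The lowest, 0.324, was on chromosome 8 from 111221001 to 111221500, with 7 reads in KO input and 15 in WT input. Each of these rests on few reads, and the interval of the last runs from 0.112 to 0.845. By chromosome the ratio ran from 0.594 on chromosome 1 (6 windows) and 0.744 on chromosome 8 (25 windows) to 1.00 on chromosome 14 (15 windows). Without chromosomes 1, 5 and 8 it was 0.908.

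The input ratio also went with the input level. Windows with under 2 input RPM (read counts scaled to library size, KO and WT input added) had a ratio of 0.985 among members (0.920 to 1.06) and 1.04 among farther windows (1.00 to 1.08). Those with 5 or more had 0.834 (0.794 to 0.876) and 0.940 (0.908 to 0.973). At each of the 4 levels of input examined, the members' ratio was below that of the farther windows, and the intervals of members and farther windows overlapped at the 2 lower levels. The part of copy number or mappability in these values was not tested.

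Set over its own input and scaled to library size, the KO IP signal of the members was 2.87 and the WT IP signal 0.930. The KO IP was above KO input in 341 windows (95.3%), and the WT IP was below WT input in 207 (57.8%). In the farther windows, chosen by the same IP contrast, the values were 2.95 for KO and 1.06 for WT. The windows were chosen for KO IP above WT IP. High KO and low WT values of IP over input thus follow in part from that choice, and are a description with no test.

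Among the members, both IP over input ratios were lowest beside the Sirt6 peaks. In windows that overlapped a Sirt6 peak the ratio was 2.54 in KO and 0.649 in WT, and at 1 to 1000 bp it was 2.37 in KO and 0.735 in WT. At 1001 to 2000 bp it was 3.33 in KO and 1.07 in WT, and the values of the 2 bands beyond, up to 10000 bp, were 3.17 and 3.20 in KO, against 1.12 and 1.13 in WT. The values thus stepped near 1000 bp from the peak edge in both genotypes. The KO to WT IP ratio was 2.89 within 1000 bp and 2.57 beyond. These values use the IP reads that chose the windows, and the difference with distance was not tested.

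The input itself also varied with distance, without a steady rise. The KO to WT input ratio was lowest in windows overlapping a Sirt6 peak, at 0.777 (0.725 to 0.833). It was 0.874 at 1 to 1000 bp (0.830 to 0.919) and 0.846 at 1001 to 2000 bp (0.778 to 0.920). Farther out it was 0.909 at 2001 to 5000 bp (0.858 to 0.962) and 0.901 at 5001 to 10000 bp (0.850 to 0.954). The intervals of the 4 bands beyond overlap overlapped one another. In 39 of the 45 windows on a Sirt6 peak the KO input was below the WT input. The input level was also higher beside the peaks: the median input was 2.63 RPKM in KO and 3.13 in WT within 1000 bp, against 2.13 in KO and 2.41 in WT beyond. A higher input lowers the ratio of IP to input, and its part in the step at 1000 bp was not tested.

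**Figure D3:**
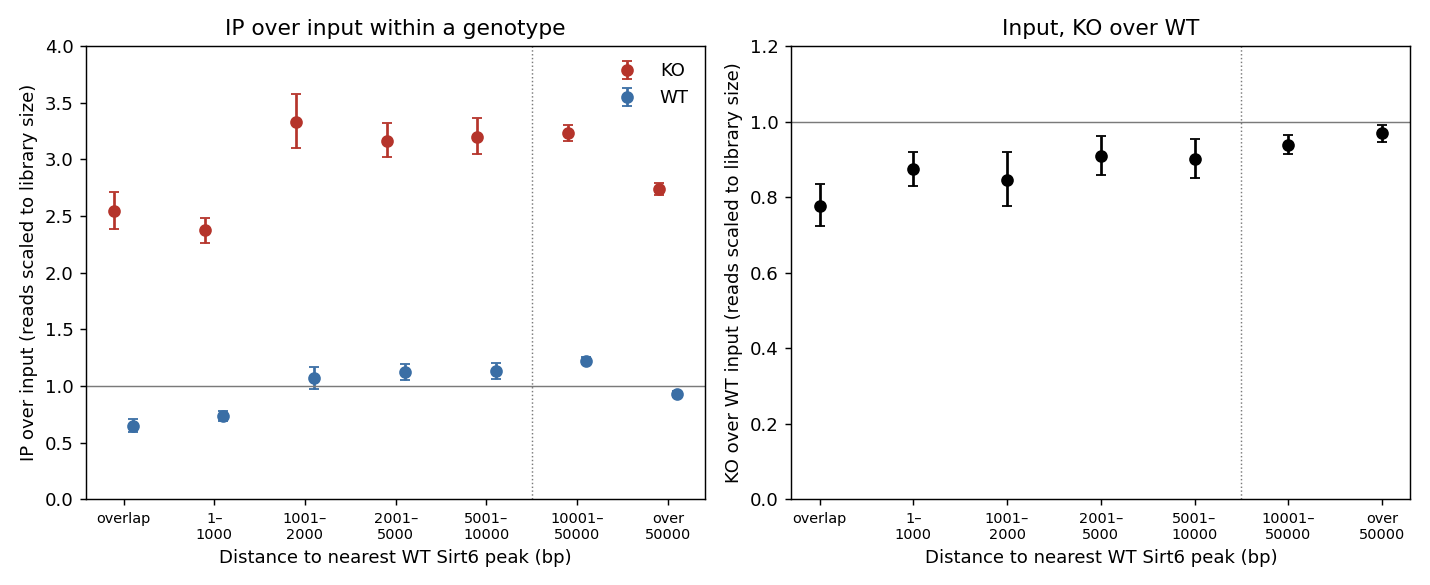
Left, summed IP over input reads scaled to library size (vertical axis), for KO and WT, by distance to the nearest WT Sirt6 peak; right, the KO to WT ratio of the input libraries on the same axis of distance. Bars are 95% intervals for counting error. Those of the left panel test nothing, since IP reads chose the windows. Bands left of the dotted line are the 358 members and those right of it the 1000 higher windows farther from Sirt6. In WT the ratio is 0.649 at overlap and 1.13 at 5001 to 10000 bp, and in the input panel 0.777 at overlap and 0.901 at 5001 to 10000 bp.

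Beyond 50000 bp from any Sirt6 peak, in 585 higher windows, the IP over input ratio was again lower, at 2.74 in KO and 0.932 in WT, as the plot of ratios by distance shows. A WT ratio under 1 was thus found both beside Sirt6 peaks and far from them, and is not particular to the members.

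The Sirt6 peaks next to the windows numbered 465, of which 43 were overlapped by a window and 133 lay within 1000 bp of one. They were set against the 11127 other Sirt6 peaks of the same chromosomes. Fold enrichment is the authors' value from MACS2 for each peak. It had a median of 7.28 near the members, with quartiles of 6.05 and 9.70, against 8.08 at the other peaks, with quartiles of 6.47 and 10.5. A fold of 10 or more was reached by 21.5% of the peaks near members (18.0% to 25.5%), against 29.1% of the others (28.3% to 30.0%), a difference of -7.62 percentage points (-11.2 to -3.57). The peaks near the windows were thus of lower fold than the rest, and the 133 within 1000 bp of a window had a median fold of 7.01.

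Other measures of these peaks come from the same reads as the fold and give no separate support. The median pileup (the height of stacked reads at the peak) was 9 near the members, against 10 at the other peaks. The median length was 364 bp near the members, against 389 bp elsewhere. A −log10 q of at least 10 was held by 34.8% of the peaks near members (30.6% to 39.3%), against 45.1% of the others (44.2% to 46.0%), and by 28.6% of those within 1000 bp of a window. Peaks near lower windows had a median fold of 8.08, the same as the others, and peaks near higher windows of chromosomes 6, 10 and 11 had 7.91. Among peaks with a −log10 q of at least 10 alone, the ratio of the median near members to that of the others was 0.975, against 0.9 over all peaks.

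**Figure D4:**
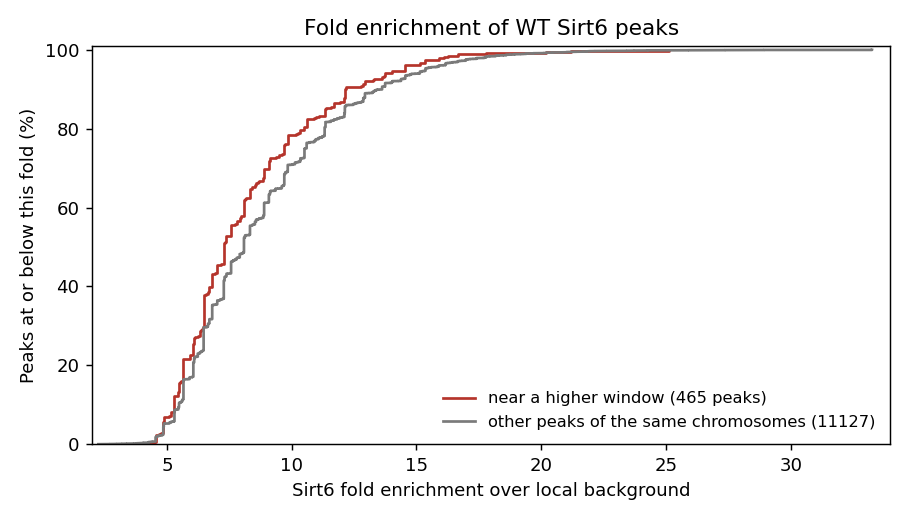
Cumulative share of WT Sirt6 peaks (vertical axis) at or below a given fold enrichment (horizontal axis), for the 465 peaks within 10000 bp of a window higher in KO and the 11127 other peaks of the same chromosomes. The curve of the peaks near higher windows lies to the left, with medians of 7.28 and 8.08.

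The strongest Sirt6 peak near a member lay on chromosome 8 from 123191027 to 123191979, with a fold of 25.1 and a window 3522 bp away that held 34 reads in KO IP, 10 in WT IP, 19 in KO input and 17 in WT input. It was followed by peaks of fold 21.2 on chromosome 5 (110536864 to 110537276) and chromosome 8 (124474921 to 124475540). The peak on chromosome 17 from 28465491 to 28466196 had a fold of 20.2, and the one on chromosome 13 from 98011172 to 98011977, with 2 members nearby, a fold of 17.8. The nearest window was 1921 to 5864 bp away at these 5 peaks, and the one on chromosome 5 alone carried an acetylation call. Over all WT Sirt6 peaks 11.9% carried one, so nothing is read from so few.

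Sirt6 peaks often lie in groups, and a group covers more ground, so that the choice by distance favours it. Another Sirt6 peak lay within 10000 bp of 63.7% of the peaks near members (59.2% to 67.9%), against 60.1% of the others (59.2% to 61.0%). The difference was 3.52 percentage points, and its interval included 0 (-1.04 to 7.86). At 1000 bp the shares were 47.5% near members and 52.0% elsewhere, a difference of -4.45 with an interval that also included 0 (-9.04 to 0.189). At 50000 bp they were 85.6% and 79.4%, a difference of 6.21 (2.65 to 9.21). The direction thus depended on the distance used, and the interval excluded 0 at 50000 bp alone, where the choice by distance also favours grouped peaks. Of the 358 windows, 204 had 1 Sirt6 peak within 10000 bp, 94 had 2, 41 had 3, 17 had 4 and 2 had 5. Of the 465 peaks, 363 had 1 member in reach, 85 had 2, 11 had 3, 3 had 4 and 3 had 5.

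The windows themselves lay mostly alone. Joined within 10000 bp they formed 283 runs, of which 224 were single windows, 49 were pairs and 10 held 3 or more. The longest runs held 5 windows. One lay on chromosome 2 from 71365001 to 71376000, 1165 to 7794 bp from a single Sirt6 peak of fold 8.52, with 195 reads in KO IP, 77 in WT IP, 78 in KO input and 43 in WT input. The other lay on chromosome 14 from 56331001 to 56340000, with 2 Sirt6 peaks and 160 reads in KO IP, 58 in WT IP, 95 in KO input and 64 in WT input. The input ratio was 1.26 (0.858 to 1.87) in the first and 1.03 (0.743 to 1.44) in the second, so neither input differed beyond counting error.

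Runs of 4 windows lay on chromosome 3 (89042001 to 89050000) and chromosome 8 (111220001 to 111222000). Their input ratios were 0.708 (0.564 to 0.890) and 0.610 (0.438 to 0.848), both below 1. The 4 further runs with the smallest p held 3 windows each: chromosome 13 at 3477001 to 3478500, chromosome 8 at 106863501 to 106865000, and chromosome 5 at 124561501 to 124563000 and 38208001 to 38213000. The first 3 of these reached a Sirt6 peak, and the last lay at least 2420 bp from one. IP ratios over the 8 runs were 2.06 to 3.25. None of their Sirt6 peaks, 1 to 3 per run, carried an acetylation call in any of the 8 lists. The share with a call was 7.10% over all Sirt6 peaks near members and 11.9% over all WT Sirt6 peaks. Nothing is read from so few peaks.

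Acetylation calls were rare at the Sirt6 peaks next to these windows. Of the 465 peaks 432 overlapped no peak of any of the 8 lists, and 33 overlapped at least 1 (7.10%), against 11.9% of the 11127 other peaks of the same chromosomes. Over all 14510 WT Sirt6 peaks the share was 11.9%. The difference between near and other peaks was -4.76 percentage points (-6.85 to -1.99).

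H3K9ac in untreated KO cells accounted for most of the calls. It was called at 25 of the 465 peaks (5.38%; 3.67% to 7.82%), against 9.17% of the others (8.64% to 9.72%) and 9.3% of all WT Sirt6 peaks, a difference of -3.79 percentage points (-5.59 to -1.30). In untreated WT cells H3K9ac was called at 0 of the 465, which allows a share of up to 0.645% by 3 counts and 0.819% by the Wilson limit, against 0.800% of the others and 1.03% of all. The interval of that difference included 0 (-0.983 to 0.033). Hence all 25 were called in KO and not in WT, a pattern held by 8.40% of the other peaks and 8.33% of all. The KO-only call was the common pattern at Sirt6 peaks of both sets, and it was less frequent near the members.

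H3K56ac was called in untreated KO cells at 6 of the 465 (1.29%), against 3.86% of the others and 4.03% of all, a difference of -2.57 percentage points (-3.37 to -1.04). In untreated WT cells it was called at 2 (0.430%), against 1.99% of the others and 2.2% of all. After RA, H3K9ac was called at 2 of the 465 in KO and 0 in WT, against 1.60% and 0.962% of the other peaks and backgrounds of 1.89% and 1.25%. H3K56ac after RA was called at 3 in KO and 1 in WT, against 1.55% and 1.42% of the others and backgrounds of 1.84% and 1.71%. All 8 shares were below those of the other peaks, and the interval of the difference held 0 for untreated WT H3K9ac and for KO H3K56ac after RA. Without the regions called in all 8 lists it held 0 in 6 of the 8, and excluded 0 for untreated KO H3K9ac (-4.92 to -0.633) and untreated KO H3K56ac (-2.65 to -0.342) alone. With Sirt6 peaks at a −log10 q of at least 10 it also held 0 in 6 of the 8, among them untreated KO H3K9ac, and excluded 0 for untreated KO H3K56ac and for WT H3K56ac after RA.

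**Figure D5:**
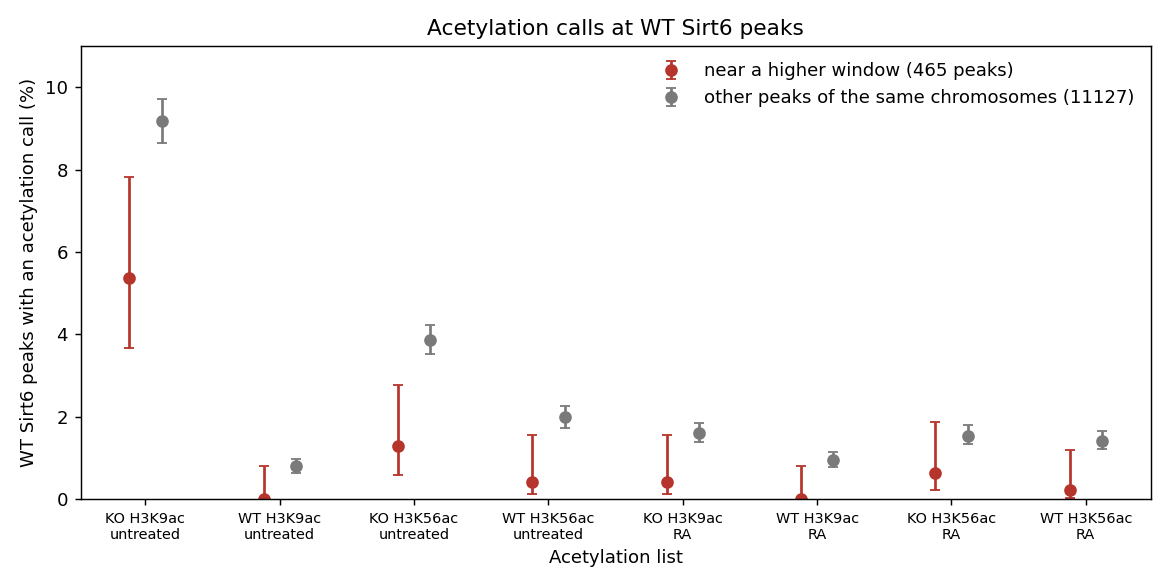
Share of WT Sirt6 peaks that overlap an acetylation peak (vertical axis) for each of the 8 lists (horizontal axis), for the 465 peaks near windows higher in KO and the 11127 other peaks of the same chromosomes; bars are Wilson 95% intervals. The share is highest for untreated KO H3K9ac in both sets, at 5.38% near the windows and 9.17% elsewhere.

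Untreated KO H3K9ac calls became more frequent with the fold of the Sirt6 peak, and the peaks near the windows were of lower fold. The shares were therefore also compared within 4 classes of Sirt6 fold, bounded by the quartiles over the WT Sirt6 peaks of these chromosomes. For untreated KO H3K9ac they were, in order of rising fold, 0%, 3.57%, 8.14% and 15.4% near the members, against 3.52%, 5.46%, 9.25% and 19.1% at the other peaks. Near peaks were lower in each class. In the lowest, 0 of 176 near peaks had a call, which allows up to 1.70% by 3 counts and 2.14% by the Wilson limit, below the others' interval of 2.94% to 4.20%. In the 3 upper classes the intervals of near and other peaks overlapped. Weighted to the same classes the difference was -2.72 percentage points. Among Sirt6 peaks with a −log10 q of at least 10 it was -3.56, with an interval that held 0 (-7.90 to 2.47).

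The near peaks also differed from those next to windows lower in KO. Untreated KO H3K9ac was called at 27 of the 202 Sirt6 peaks within 10000 bp of a lower window (13.4%; 9.35% to 18.7%), with an interval above that of the peaks near the members. Those 202 peaks also had a higher Sirt6 fold, 8.08 at the median against 7.28. These shares were not weighted by fold, and its part in the difference was not tested. On chromosomes 6, 10 and 11 it was called at 12 of 234 peaks near higher windows (5.13%; 2.96% to 8.75%), close to the 5.38% here. Distance to the window made little difference: the share was 6.02% among the 133 peaks within 1000 bp (3.08% to 11.4%) and 5.12% among the 332 farther ones (3.22% to 8.05%).

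The 25 peaks with an untreated KO H3K9ac call had modest H3K9ac enrichment. The authors' fold of the H3K9ac peak was 3.83 at the lowest, 5.41 at the median and 6.92 at the highest, against 3.56, 5.64 and 30.5 at the 935 other Sirt6 peaks called only in KO. With acetylation peaks at a −log10 q of at least 10, 1 of the 465 peaks kept its call (0.215%), against 1.79% of the others. MACS2 had no control library for the acetylation lists, and the fragment length estimated for untreated WT H3K9ac was 155 bp, against 212 bp for untreated KO H3K9ac. The part of these settings in the KO-only calls was not tested.

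By H3K9ac fold these 25 were led by a Sirt6 peak on chromosome 1 from 74647472 to 74647786, with a fold of 6.92 and a window 215 bp away that held 57 reads in KO IP and 21 in WT IP, beside 50 in KO input and 44 in WT input. The next was on chromosome 12 from 25336235 to 25336815, a stronger Sirt6 peak of fold 15.9, with a window at 186 bp that held 32 reads in KO IP and 11 in WT IP. At that window the input was higher than the IP in both genotypes, also after scaling to library size, with 82 input reads in KO and 53 in WT. The third, on chromosome 3 from 96131755 to 96132280, was the only one of the 465 called in 4 lists: KO H3K9ac and KO H3K56ac, each untreated and after RA, and in no WT list. Its KO H3K9ac −log10 q of 15.7 was the highest of the 10 named. On chromosome 4 the Sirt6 peak from 88367774 to 88368334 was overlapped by its window, which held 21 reads in KO IP and 5 in WT IP, beside 24 in KO input and 21 in WT input. The remaining 6 of the 10 lay on chromosomes 4 (from 41687496), 9 (from 64880197), 5 (from 124170724), 15 (from 54943920), 2 (from 158450663) and 19 (from 42202895), with H3K9ac folds of 5.73 to 6.35.

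Few of the windows coincided with acetylation themselves, as was the case among all listed windows of these chromosomes. Of the 358, 5 overlapped an acetylation peak (1.40%), 14 lay within 1000 bp of one and 38 within 10000 bp (10.6%; 7.83% to 14.2%). Among all 2754 listed windows of the same chromosomes, higher and lower, 31 overlapped an acetylation peak (1.13%) and 129 lay within 10000 bp of one (4.68%; 3.96% to 5.54%). Among the 1000 higher windows farther from Sirt6, 2 overlapped one (0.2%), 3 lay within 1000 bp and 17 within 10000 bp (1.7%; 1.06% to 2.71%), below the members. For untreated KO H3K9ac alone 28 members lay within 10000 bp (7.82%), and for untreated WT H3K9ac 0. In the lower windows near Sirt6 these counts were 33 (20.1%) and 3 (1.83%), and in the farther higher windows 13 (1.3%) for each list. More windows near KO than near WT H3K9ac peaks were thus not particular to the members. Among the 164 lower windows near Sirt6, 10 overlapped an acetylation peak (6.10%; 3.35% to 10.9%) and 37 lay within 10000 bp of one (22.6%; 16.8% to 29.5%). The windows higher in KO thus had an acetylation peak within 10000 bp less often than the lower ones near Sirt6 and more often than the higher ones farther from Sirt6, with intervals that did not overlap in either case. Sirt6 and acetylation peaks can coincide, so the choice by distance to Sirt6 bears on the second difference.

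The 5 overlapping windows lay at 3 places. On chromosome 8 the adjacent windows from 72240001 to 72241000 shared an untreated WT H3K56ac peak of fold 7.89, with 62 and 85 reads in KO IP against 30 and 47 in WT IP. On chromosome 1 the adjacent windows from 74708001 to 74709000 shared an untreated KO H3K9ac peak of fold 5.41, with 61 and 34 reads in KO IP against 18 and 3 in WT IP. On chromosome 2 the window from 119698501 to 119699000 overlapped a WT H3K56ac peak of RA-treated cells of fold 7.16, with 10 reads in KO IP and 0 in WT IP. All 5 windows also overlapped a WT Sirt6 peak.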

How the data were processed

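Untreated KO and WT cells were profiled by CMS-IP, with 1 IP and 1 input library each; peak lists came from ChIP-seq libraries of the same strain. Reads were aligned to mm9 with BWA 0.5.9, with Picard for a step not given in the sources used, with peaks from MACS2 2.0.10, per the submitters' processing notes. Each library was called on its own with a q limit of 0.01, for Sirt6 against whole-cell extract and for acetylation with no control, per the file headers. The deposited lists give for each peak a pileup signal, a fold enrichment, and p and q as −log10. The authors' CMS-IP table gives read counts, RPKM, and edgeR's log2 fold change, p-value and adjusted p for 500 bp windows, all at p under 0.001; it repeats its header once. For CMS-IP the aligner is not given in these sources. Columns left unused numbered 0.

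Library sizes were derived from the deposited counts and RPKM. Distance is edge to edge, 0 where 1 base is shared. Ratios are of summed reads scaled to library size, with exact (Clopper-Pearson) intervals; ratios of ratios have log-normal intervals, shares Wilson and differences Newcombe intervals. A count of 0 was given the limit of 3 counts. Duplicate reads cannot be told apart. The steps were tested on simulated data. No result was averaged over libraries, and no sample was left out of a comparison it belonged to; the 2 KO Sirt6 lists held 0 peaks.

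Members, lists and tests were chosen with earlier results of these data known. Regions named were the 10 members with the smallest p, the 8 runs with most windows, the 5 highest Sirt6 peaks, 10 Sirt6 peaks with a KO-only untreated H3K9ac call by H3K9ac fold, the 3 highest and 3 lowest input ratios among members with at least 20 input reads, and members on acetylation peaks; the text names some. Alternatives were distances of 1000 and 5000 bp, −log10 q from 10 upward, lists of equal length, overlap over 50% of the shorter peak, other gaps for runs, medians in place of sums and an adjusted p under 0.1. The software was scipy 1.17.1, pandas 2.3.3, numpy 2.4.6, matplotlib 3.10.9 and statsmodels 0.14.6, under Python 3.11.15.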

Additional observations from a re-analysis of the deposited data

How the results depend on the processing

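Of 98 alternatives, 77 left the value within the spread used to judge it, 21 moved it, and 0 turned the sign of a value whose interval excluded 0. No sign could turn for counts, for the IP ratio or where 0 near peaks had a call. The share near Sirt6 uses the values that chose the members. Nothing is therefore read from the absence of reversals. The sign changed for 1 difference whose interval included 0, the share of Sirt6 peaks with a neighbour, which was -4.45 points at 1000 bp. The number of windows was 172 with Sirt6 peaks at a −log10 q of at least 10, 140 within 1000 bp and 9 at an adjusted p under 0.1. The difference between higher and lower windows in the share near Sirt6 was 5.79 percentage points with the stricter Sirt6 limit, 7.59 within 1000 bp and 7.58 without chromosomes 1 and 14, an alternative chosen after seeing the data. The KO to WT input ratio was 0.839 within 1000 bp and 0.908 without chromosomes 1, 5 and 8, also chosen after seeing the data. The IP ratio was 3.20 as the median of windows with at least 10 input reads, 2.60 with the stricter Sirt6 limit and 2.89 within 1000 bp. With the stricter Sirt6 limit the differences in acetylation share were -1.50 (WT H3K9ac), -4.15 (KO H3K56ac) and -2.67 (WT H3K56ac) percentage points in untreated cells, and -1.84 (KO H3K9ac), -1.83 (WT H3K9ac), -1.88 (KO H3K56ac) and -2.87 (WT H3K56ac) after RA. On these fewer peaks the intervals were wider: they held 0 in 6 of the 8 lists, against 2 as reported, so that the interval of untreated KO H3K9ac (-7.90 to 2.47), untreated WT H3K56ac (-3.74 to 0.521), KO H3K9ac after RA (-2.87 to 1.35) and WT H3K9ac after RA (-2.24 to 0.507) no longer excluded 0. They held 0 in 6 lists without regions called in all 8, in 5 with the nearest Sirt6 peak only and in 3 with the stricter acetylation limit. The ratio of median Sirt6 fold was 0.867 within 1000 bp and 0.975 with the stricter Sirt6 limit, the second chosen after seeing the data, as was the weighting by Sirt6 fold. The cause of these shifts was not tested. With lists of equal length 1 of the 465 peaks had an untreated KO H3K9ac call, as with the stricter acetylation limit. No paired analysis was possible because each group held 1 library, and for the same reason no replicate could be left out. Windows with few reads limit single ratios, and genes were not analysed.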
